A study of Mus musculus with 38 samples.

Results

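The hypothalamus (Hypo) of male Ube3a2X mice was compared with that of male wild-type (WT) mice by RNA-seq. The libraries were chosen by the tissue, genotype, and sex in their labels, which gave 9 of the 38 libraries of the study, 5 from Ube3a2X and 4 from WT males. All mice were adults of the FVB/NJ strain. Ube3a2X mice are homozygous for a Ube3a transgene and so carry 2 added gene copies next to their own, and the WT mice were littermates. The transgenic protein carries a tag at its C terminus, and how active the tagged ligase is was not tested here. Each library came from 1 mouse, whose hypothalamus was taken out with tweezers.

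UBE3A is a ubiquitin ligase of the HECT family, which hands ubiquitin to its substrates and so marks many of them for the proteasome. In neurons only the maternal copy of the gene is active, because a long antisense transcript, Snhg14, silences the paternal copy. Loss of the maternal copy causes Angelman syndrome, and extra maternal copies of the region are among the frequent genetic findings in autism. The hypothalamus controls feeding, growth, stress, reproduction, and body temperature through small groups of peptide neurons, and the ventricle at its midline is lined by ciliated ependymal cells and tanycytes.

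The libraries held 44717261 to 79861154 counted reads, and 12028 genes passed the filters. Levels are given as CPM, read counts per 1000000 counted reads, first for the WT mice 245, 251, 403, and 423 and then for the Ube3a2X mice 238, 253, 258, 267, and 404, always in this order. The tissue and sex labels were checked first. Nkx2-1, a transcription factor that defines the ventral hypothalamus, stood at 24.7 to 37.2 CPM, and Pmch, the peptide of lateral hypothalamic neurons, at 206 to 586 CPM. Neurod6 of cortical neurons did not exceed 2.39 CPM. The Y-linked Ddx3y was at 132 CPM or more in each library and Xist at 0.327 CPM or less. The RNA integrity number (RIN) was 6.8 in WT mouse 423 and 8.8 to 9.3 in the other 8, so the RIN term of the model rested almost wholly on that library. Reads on the unexpected strand made up 0.969 to 1.64% in WT and 1.71 to 3.54% in Ube3a2X mice, with no overlap of the groups (exact permutation test, two-sided, p = 0.0317, adjusted over 10 measures p = 0.317). The library of Ube3a2X mouse 238 stood apart from the others on the first principal component, which held 43.1% of the variance. It also had the highest share of intronic bases, 9.52% against 3.88 to 8.41%.

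Ube3a, on chromosome 7 from 59228750 to 59311536 of GRCm38, was the gene with the smallest p. Its level was 315, 337, 340.1, and 289 CPM in WT mice and 1847, 1535, 791, 1032, and 1120.3 CPM in Ube3a2X mice. The WT mice lay close together, the Ube3a2X mice spread over 2.33-fold, and the lowest Ube3a2X mouse was 2.33-fold above the highest WT mouse. The mean was 320.4 ± 23.6 CPM (SD, n = 4) in WT and 1265 ± 422 CPM (SD, n = 5) in Ube3a2X mice, a 3.95-fold ratio. The log2 fold change of the edgeR model with RIN was 1.94 ± 0.27 (SE), with an adjusted p of 0.497 over the genes tested. Ube3a was called without a covariate (log2 fold change 1.98, adjusted p = 0.0399), by limma-voom (1.89, adjusted p = 0.0245), and by DESeq2 (1.94, adjusted p = 8.25e-16). In the edgeR model, its adjusted p was 0.17 to 0.999 in the other fits of the 9 libraries, and it was 0.0867 in the fit of the 18 hypothalamus libraries of both sexes. It was also called without Ube3a2X mouse 258, the lowest of its group (2.04, adjusted p = 0.0141), and not without mouse 238, the highest (1.78, adjusted p = 0.163).

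The 250 bases before the annotated start of Ube3a are shown because every count of Ube3a reads here adds the endogenous gene and its transgene copies, which the counts do not separate. The sequence is that of RefSeq (GRCm38.p6, plus strand, chr7:59228500-59228749), and the capitals mark each CG dinucleotide, of which it holds 24 against a median of 6 over 27025 promoters of the same length.
Ube3a: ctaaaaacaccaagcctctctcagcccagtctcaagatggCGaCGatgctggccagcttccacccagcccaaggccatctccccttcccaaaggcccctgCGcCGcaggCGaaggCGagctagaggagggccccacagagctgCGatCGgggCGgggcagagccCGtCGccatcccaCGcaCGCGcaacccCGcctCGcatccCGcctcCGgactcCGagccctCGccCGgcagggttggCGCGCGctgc

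Counts on the opposite strand of Ube3a were also higher in Ube3a2X mice. The unnamed transcript 9330162G02Rik, which runs against the first part of Ube3a from 59223847 to 59254788, was at 15.8, 14.9, 10.3, and 19.8 CPM in WT and 62.4, 24.02, 28.7, 25.7, and 43.6 CPM in Ube3a2X mice. Gm44560, which lies within Ube3a on the same opposite strand and was picked out after its values were seen, was at 4.75, 4.53, 3.09, and 5.76 CPM and 18.9, 6.09, 8.22, 8.56, and 12.2 CPM. In both, each Ube3a2X mouse was above each WT mouse, and mice 238 and 404 were the highest. Their log2 fold changes were 1.43 ± 0.36 (SE) and 1.39 ± 0.38 (SE), with an adjusted p of 0.978 each. Multiplying the Ube3a level of a library by its unexpected-strand share gives 2.80 to 5.15 CPM in WT and 14.1 to 41.2 CPM in Ube3a2X mice. Among WT mice this product was lowest in mouse 423, where both transcripts were highest. Among Ube3a2X mice it was highest in mouse 253, where both transcripts were lowest. Mice 238 and 404 also had the highest shares of intronic bases, 9.52% and 8.41%. The part of misassigned Ube3a reads in the counts of these transcripts was not tested. Snhg14, the antisense transcript that silences the paternal copy, was at 169.7, 145, 115, and 164 CPM and 278, 148, 189, 152, and 232 CPM, and mice 253 and 267 lay within the WT range (log2 fold change 0.46 ± 0.22).

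**Figure D1:**
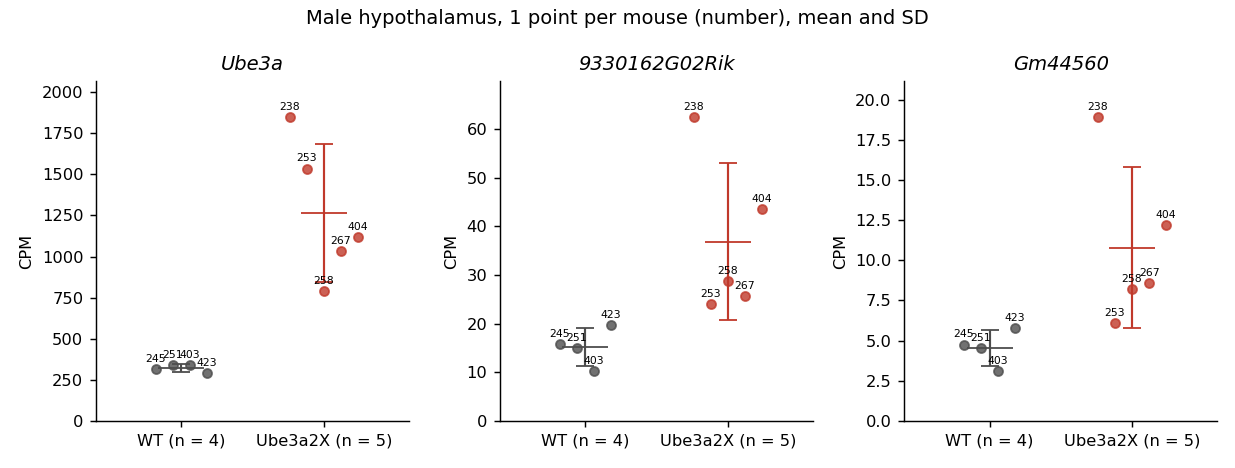
Levels of Ube3a and of the opposite-strand genes 9330162G02Rik and Gm44560 in CPM, each point 1 mouse (number beside it), with the mean and SD of 4 WT and 5 Ube3a2X mice. All 5 Ube3a2X mice lie above all WT mice in each panel, and mouse 238 is the highest in each.

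In the model with RIN no gene of the 12028 passed an adjusted p of 0.05 (0%), and the lowest adjusted p after that of Ube3a was 0.978. An unadjusted p under 0.05 was reached by 323 genes (2.69%), 212 of them higher (1.76%) and 111 lower (0.923%) in Ube3a2X mice. The log2 fold change was above 0 in 5928 genes (49.3%), and its middle 90% ran from -0.22 to 0.27. The groups did not overlap in 49 genes that were higher (0.407%) and 74 that were lower (0.615%) in Ube3a2X mice. Without a covariate 1 gene was called, Ube3a (0.00831%), DESeq2 called 3 (Ube3a, Cdh23, and Gm44560), and limma-voom called Ube3a alone. Without WT mouse 403 the model with RIN called 3 genes (Cdh23, Ebf3, and Scn4b) and without Ube3a2X mouse 258 it called Ube3a, and with 1 library left out the number of genes at an unadjusted p under 0.05 ran from 115 (without WT mouse 251) to 602 (without Ube3a2X mouse 404). The values below are therefore measurements of genes that did not pass the test of the edgeR model, in which each named gene other than Ube3a had an adjusted p of 0.978 to 0.992, and ± after a log2 fold change gives its SE. List members named to spell out a count, and Snhg14, Foxj1, Six6, Dynlrb2, Rarres2, Mobp, Prl, Fos, Gabra5, and Gabrg3, were picked after their values were seen.

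**Figure D2:**
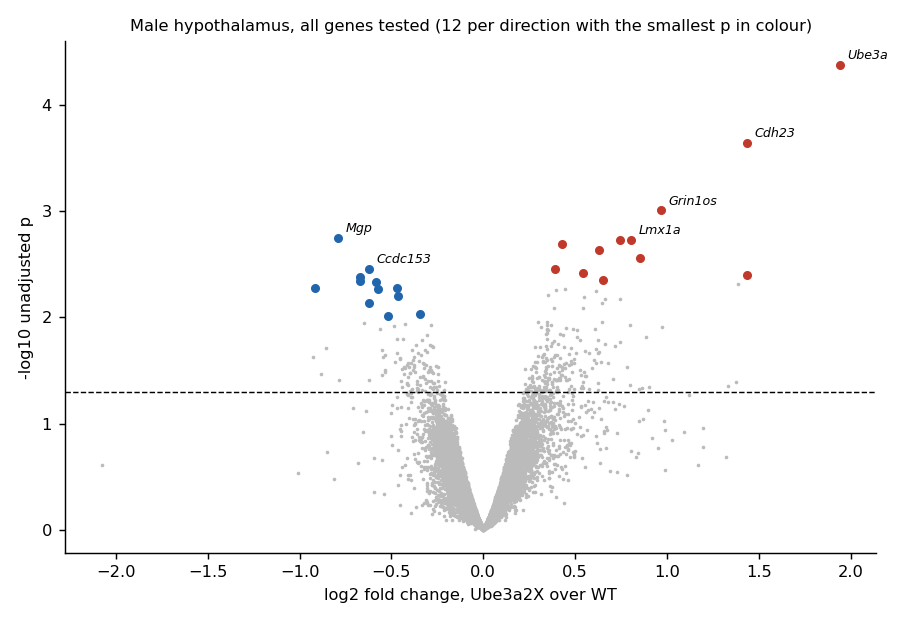
Log2 fold changes, Ube3a2X over WT (x axis), against -log10 of the unadjusted p (y axis) for each of the 12028 genes tested in male hypothalamus, with the 12 genes of smallest p per direction in colour and the dashed line at an unadjusted p of 0.05. Ube3a lies at the far upper right (log2 fold change 1.94).

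After Ube3a, the gene with the smallest p among those higher in Ube3a2X mice was Cdh23, a cadherin of the links between the stereocilia of hair cells. Its level was 2.12, 2.47, 4.32, and 9.76 CPM in WT and 8.96, 7.38, 6.57, 10.3, and 6.004 CPM in Ube3a2X mice. WT mouse 423, the library of low RIN, lay within the Ube3a2X range, and the other 3 WT mice below it. The log2 fold change was 1.44 ± 0.27 with RIN and 0.75 without it. The same mouse was the highest WT mouse in the pair of LIM homeobox genes Lmx1a and Lmx1b, which specify midbrain dopamine neurons and parts of the posterior hypothalamus. Lmx1a was at 3.82, 2.75, 4.699, and 5.88 CPM in WT and 6.64, 6.98, 5.62, 8.29, and 5.08 CPM in Ube3a2X mice (log2 fold change 0.81 ± 0.21). Lmx1b was at 5.03, 4.35, 5.68, and 8.05 CPM and 8.08, 8.56, 7.83, 8.27, and 5.96 CPM (log2 fold change 0.63 ± 0.17). C130021I20Rik, which begins beside the start of Lmx1b on the opposite strand, was at 7.86, 7.15, 9.45, and 14.1 CPM and 13.1, 13.3, 11.9, 16.4, and 8.73 CPM. In Lmx1a and Lmx1b the groups overlapped through WT mouse 423 alone, in C130021I20Rik through WT mouse 403 as well, and without RIN the log2 fold changes were 0.61, 0.42, and 0.40.

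Ebf3, a transcription factor picked out after its values were seen, was at 13.2, 16.9, 36.1, and 36.8 CPM in WT and 40.6, 40.02, 28.9, 41.4, and 27.9 CPM in Ube3a2X mice (log2 fold change 0.71 ± 0.33). With 1 library left out, it was 0.45 without WT mouse 245 and 1.32 without WT mouse 403, where the edgeR model gave an adjusted p of 0.0391. WT mice 245 and 251 were the lowest 2 of the 9, and WT mice 403 and 423 lay within the Ube3a2X range. Nr4a2, an immediate early gene that also marks dopamine neurons, was at 10.5, 8.86, 12.1, and 13.5 CPM and 14.9, 15.8, 11.496, 20.8, and 11.9 CPM (log2 fold change 0.53 ± 0.19). The groups overlapped in Nr4a2 through WT mice 403 and 423.

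Of the other genes with the smallest p among those higher in Ube3a2X mice, 3 overlap a more highly expressed gene on the other strand. Grin1os, antisense to the NMDA receptor gene Grin1, was at 2.08, 1.64, 2.12, and 1.18 CPM in WT and 3.81, 4.34, 2.86, 5.14, and 2.799 CPM in Ube3a2X mice (log2 fold change 0.97 ± 0.23), with no overlap. The Grin1 level times the unexpected-strand share was 2.71 to 4.43 CPM in WT and 4.25 to 9.56 CPM in Ube3a2X mice, above the Grin1os level in each library. Acat3, an acetyl-CoA acetyltransferase gene opposite Tcp1, was at 1.81, 1.4999, 2.03, and 1.595 CPM and 2.63, 3.37, 2.95, 3.68, and 2.32 CPM, also without overlap. Gm5577, opposite Rab7, was at 4.68, 4.75, 3.77, and 5.21 CPM and 6.85, 6.39, 7.07, 5.45, and 6.36 CPM, again without overlap. The same product for Tcp1 was 2.31 to 4.02 CPM in WT and 3.84 to 8.74 CPM in Ube3a2X mice, above the Acat3 level in each library. For Rab7 it was 2.75 to 4.58 CPM and 4.64 to 10.2 CPM, above the Gm5577 level in WT mouse 403 and in Ube3a2X mice 253 and 267 and below it in the other libraries. Over the 138 tested genes that the annotation classes as antisense, 11 had an unadjusted p under 0.05 and were higher (7.97%, against 1.76% of all genes) and 0 were lower, with a median log2 fold change of 0.05. With the unexpected-strand share as the covariate in place of RIN, an alternative chosen after seeing the data, 15 of the 138 were higher and 2 lower at an unadjusted p under 0.05, and the median was 0.04. In that fit 712 of the 12028 genes had an unadjusted p under 0.05, against 323 with RIN.

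The remaining genes of that group overlapped between the genotypes. Coro6, a coronin that binds actin filaments, was at 11.3, 13.4, 13.1, and 24.9 CPM in WT and 26.5, 23.1, 29.3, 18.1, and 16.6 CPM in Ube3a2X mice (log2 fold change 0.85 ± 0.22 with RIN and 0.53 without it). Sec14l5, of a family of lipid-binding proteins, was at 14.6, 12.6, 12.9, and 19.3 CPM and 18.3, 18.004, 18.1, 17.8, and 17.3 CPM. Galnt6, which starts O-linked glycosylation, was at 12.2, 12.5, 13.97, and 16.9 CPM and 17.5, 17.7, 15.96, 17.1, and 16.05 CPM. In each of the 3, WT mouse 423 was the highest WT mouse and the other WT mice lay below all Ube3a2X mice.

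**Figure D3:**
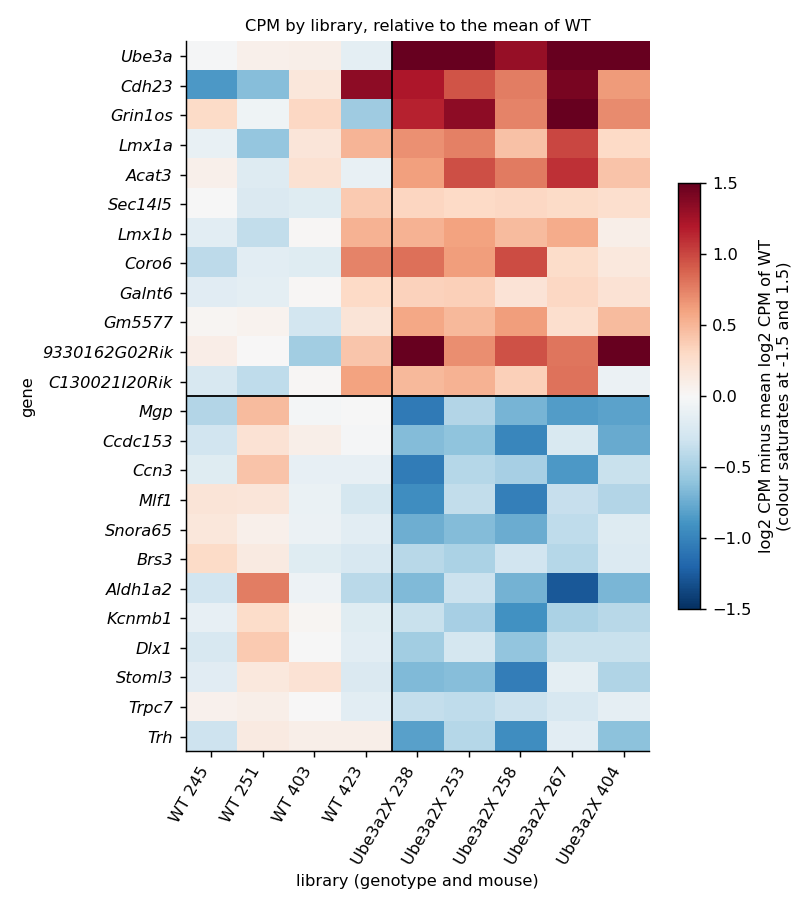
The 12 genes of smallest p per direction (rows) in the 9 libraries (columns), as log2 CPM minus the mean log2 CPM of the 4 WT mice, with colour from blue (lower) to red (higher). WT mouse 423 shares the red of the Ube3a2X mice in Cdh23, Lmx1a, Lmx1b, Coro6, and C130021I20Rik, and the lower block is blue in most Ube3a2X mice.

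Ccdc153, a marker of ependymal cells, was among the 12 lower genes of smallest p. It was at 7.29, 10.3, 9.398, and 8.77 CPM in WT and 5.66, 5.82, 4.49, 7.58, and 5.24 CPM in Ube3a2X mice (log2 fold change -0.62 ± 0.18). Mlf1, which is expressed in ciliated cells, was at 3.73, 3.69, 3.04, and 2.72 CPM and 1.71, 2.53, 1.5998, 2.58, and 2.42 CPM (log2 fold change -0.67 ± 0.20). Stoml3, a membrane protein of ciliated and sensory cells, was at 2.76, 3.46, 3.59, and 2.67 CPM and 1.96, 1.98, 1.501, 2.79, and 2.26 CPM (log2 fold change -0.62 ± 0.20). Mlf1 did not overlap between the groups, and in Ccdc153 and Stoml3 only Ube3a2X mouse 267 reached the WT range.

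Of the 15 tested members of the list of tanycyte and ependymal genes, 4 had an unadjusted p under 0.05 and were lower and 1 was higher, against 0.923% and 1.76% of all genes. Their log2 fold change was below 0 in 12, and the median was -0.28 against 0.00 over all genes. Next to Ccdc153, Tmem212 was at 4.80005, 5.26, 5.27, and 5.94 CPM and 2.72, 4.06, 3.04, 4.22, and 3.905 CPM (log2 fold change -0.49 ± 0.17). The dynein light chain gene Dynlrb2 was at 3.91, 4.26, 3.65, and 3.81 CPM and 1.94, 3.07, 3.19, 3.22, and 3.34 CPM (log2 fold change -0.42 ± 0.19). Rarres2, the precursor of the chemoattractant chemerin and a tanycyte gene, was at 15.8, 19.5, 17.1, and 17.8 CPM and 9.44, 13.8, 13.5, 15.7, and 13.9 CPM (log2 fold change -0.38 ± 0.15). Tmem212, Dynlrb2, and Rarres2 did not overlap between the groups, 3 of 15 members against 0.615% of all genes. Foxj1, the regulator of motile cilia, was at 12.1, 18.2, 14.6, and 13.2 CPM and 9.85, 14.2, 11.8, 14.4, and 10.8 CPM and overlapped (log2 fold change -0.28 ± 0.17). Dio2, a tanycyte enzyme that activates thyroid hormone, had a log2 fold change of 0.14. Hdc, which makes histamine in mammillary neurons and mast cells, was the member that was higher, at 56.9, 58.1, 68.2, and 64.2 CPM and 76.7, 73.5, 86.4, 63.9, and 70.6 CPM (log2 fold change 0.26 ± 0.12). The summed level of the list was 300.3 to 381 CPM in WT and 298 to 371 CPM in Ube3a2X mice. Without Ube3a2X mouse 238, the lowest in Tmem212 and Dynlrb2, 3 members were lower at an unadjusted p under 0.05 and the median was -0.22, and without a covariate as well it was -0.13. Without WT mouse 423, 2 were lower. In bulk tissue, fewer cells of a type and less RNA per cell cannot be told apart.

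For the genes of ciliated cells, the 250 bases before their starts were searched for GTTGCC on both strands, the half-site of the RFX factors that act on ciliary genes. The search was made after the values were seen. The promoters of Ccdc153 (chr9:44240427-44240676, plus strand), Mlf1 (chr3:67373847-67374096, plus strand), and Dynlrb2 (chr8:116504765-116505014, plus strand) each hold 1 match, marked in capitals in the RefSeq sequences (GRCm38.p6), and those of Tmem212 and Stoml3 hold none. Of 27025 promoters of this length 2833 hold a match (10.5%), and 2 of the 11 promoters found for the tested members of the list do.
Ccdc153: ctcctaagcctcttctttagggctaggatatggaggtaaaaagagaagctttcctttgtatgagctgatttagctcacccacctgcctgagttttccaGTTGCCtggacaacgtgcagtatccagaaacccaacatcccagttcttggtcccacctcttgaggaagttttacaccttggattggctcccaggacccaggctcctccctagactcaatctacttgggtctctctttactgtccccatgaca
Mlf1: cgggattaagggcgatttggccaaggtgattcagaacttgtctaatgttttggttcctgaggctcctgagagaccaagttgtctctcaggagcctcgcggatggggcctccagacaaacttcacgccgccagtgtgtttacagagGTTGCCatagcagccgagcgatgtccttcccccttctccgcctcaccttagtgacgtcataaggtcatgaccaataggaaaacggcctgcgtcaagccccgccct
Dynlrb2: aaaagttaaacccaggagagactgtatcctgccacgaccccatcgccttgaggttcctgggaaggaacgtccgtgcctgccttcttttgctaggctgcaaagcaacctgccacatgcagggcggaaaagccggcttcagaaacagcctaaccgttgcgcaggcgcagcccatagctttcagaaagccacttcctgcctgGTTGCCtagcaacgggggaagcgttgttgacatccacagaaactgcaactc

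Of the other lower genes of smallest p, Mgp, a matrix protein that inhibits calcification, was at 4.84, 9.08, 6.44, and 6.54 CPM in WT and 3.14, 4.82, 4.04, 3.68, and 3.75 CPM in Ube3a2X mice, with no overlap (log2 fold change -0.79 ± 0.20). Ccn3, a secreted matricellular protein, was at 15.2, 23.4, 15.9, and 15.97 CPM and 8.39, 12.9, 12.3, 9.55, and 13.8 CPM (log2 fold change -0.67 ± 0.19), also with no overlap. Aldh1a2, which makes retinoic acid and is strong in the meninges, was at 7.41, 15.3, 8.58, and 6.82 CPM and 5.701, 7.24, 5.52, 3.73, and 5.598 CPM (log2 fold change -0.92 ± 0.26, and -1.13 to -0.52 with 1 library left out). WT mouse 251 was the highest of all 9 in each of these 3 genes, and Aldh1a2 overlapped through WT mouse 423 and Ube3a2X mouse 253. Kcnmb1, a potassium channel subunit of smooth muscle, was at 2.65, 3.49, 2.96, and 2.56 CPM and 2.29, 2.05, 1.54, 2.09, and 2.17 CPM without overlap. Of the 24 tested endothelial, mural, and meningeal genes, 3 were lower at an unadjusted p under 0.05 (Slc6a13, Ogn, and Igf2), against 0.923% of all genes, and 0 were higher. The median was -0.06, and without a covariate 1 was lower. The 11 genes above 0 were Cldn5, Pecam1, Flt1, Kdr, Tek, Cdh5, Slco1a4, Pdgfrb, Abcc9, Vtn, and Myh11, all endothelial or mural. The meningeal members Dcn, Lum, Col1a1, Col1a2, Col3a1, Igf2, Ptgds, Slc6a13, and Ogn were below 0, as were Ly6c1, Itm2a, Acta2, and Tagln. Mgp, Ccn3, Aldh1a2, and Kcnmb1 are not members of that list. Without Ube3a2X mouse 404 its median was 0.02. Their summed level was 734 to 1038 CPM in WT, the highest in mouse 251, and 748 to 853 CPM in Ube3a2X mice. Ogn, a meningeal proteoglycan, was at 3.06, 10.999, 5.89, and 4.12 CPM and 4.18, 3.78, 3.001, 2.99, and 3.54 CPM, with WT mouse 251 far above the rest.

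Dlx1, a homeobox gene of forebrain GABA neurons, was at 29.6, 45.8, 34.8, and 31.2 CPM in WT and 24.3, 28.9, 23.1, 27.5, and 27.7 CPM in Ube3a2X mice, with no overlap (log2 fold change -0.47 ± 0.14, and -0.60 to -0.26 with 1 library left out). Its relative Dlx6 was at 10.2, 13.1, 11.8, and 9.397 CPM and 6.66, 8.99, 6.35, 8.79, and 10.9 CPM (log2 fold change -0.47 ± 0.18), overlapping through Ube3a2X mouse 404. Of the 32 tested transcription factors of hypothalamic neurons, 5 were lower at an unadjusted p under 0.05 (Dlx1, Dlx6, Six6, Six3, and Dlx2) and 1 was higher (Zfhx4), against 0.923% lower and 1.76% higher over all genes. Of the 32, 13 were above 0 and 19 below, and the median was -0.15, which ran from -0.22 (without WT mouse 403) to -0.05 (without WT mouse 251) with 1 library left out. Without mouse 238, 3 were lower and 0 higher, the numbers were the same without a covariate, and 2 were lower and 0 higher with both changes. Six6, an eye and hypothalamus patterning gene, was at 21.96, 23.1, 15.5, and 12.1 CPM and 10.97, 14.3, 11.6, 13.6, and 18.98 CPM, and the groups overlapped. The enzymes that make GABA did not overlap. Gad1 was at 427, 428, 407, and 399 CPM in WT and 323, 357, 275, 357, and 376 CPM in Ube3a2X mice (log2 fold change -0.30 ± 0.11). Gad2 was at 492, 565, 522, and 489 CPM and 409, 399.7, 287, 450.1, and 463 CPM (log2 fold change -0.37 ± 0.14). Over the 20 tested GABA-A receptor and inhibitory synapse genes, Gad1 and Gad2 included, 0 were higher and 2 lower at an unadjusted p under 0.05 (against 0.923% of all genes lower), with 8 above 0 and a median of -0.05. The list also gave 2 lower and 0 higher members without mouse 238, without WT mouse 423, and without a covariate. Slc17a6, the vesicular transporter of hypothalamic glutamate neurons, was at 356, 341, 451, and 436 CPM and 503, 453, 439.95, 449.7, and 397 CPM and overlapped (log2 fold change 0.22 ± 0.12).

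Of 26 tested genes of feeding and arousal peptides, the signals by which the hypothalamus steers appetite and sleep, 23 had a log2 fold change below 0, 2 of them at an unadjusted p under 0.05 (against 0.923% of all genes lower), and the median was -0.19. The list lay 0.49 (log2) below its mean over the 9 libraries in mouse 238 and at -0.12 to 0.11 in the other Ube3a2X mice. Without mouse 238, 1 was lower at an unadjusted p under 0.05 and the median was -0.14, without WT mouse 251 the median was -0.10, and with 2 surrogate variables it was -0.07. Trh, the thyrotropin-releasing hormone, was at 98.6, 134, 130.1, and 129 CPM in WT and 69.3, 91.2, 63.8, 109, and 80.01 CPM in Ube3a2X mice, and only mouse 267 was within the WT range (log2 fold change -0.52 ± 0.17). Npvf, the precursor of the gonadotropin-inhibitory peptide, was at 4.98, 3.36, 10.9, and 8.39 CPM and 3.37, 3.89, 2.51, 4.71, and 2.84 CPM (log2 fold change -0.89 ± 0.36), and without WT mouse 403 the log2 fold change was -0.22. The best known members had wide spreads. Pomc, the source of melanocortins, was at 53.4, 151, 40.98, and 34.7 CPM and 25.8, 56.3, 58.6, 48.7, and 67.1 CPM (log2 fold change -0.68 ± 0.53). The hunger peptide genes Agrp and Npy had log2 fold changes of -0.31 ± 0.27 and -0.50 ± 0.32. Hcrt, which keeps animals awake, had -0.32 ± 0.54, and Pmch had -0.32 ± 0.25. Without a covariate the values were -0.19 for Agrp, -0.31 for Npy, and -0.76 for Hcrt. The groups overlapped in all 5.

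Among the 11 tested neuroendocrine and social peptide genes 0 had an unadjusted p under 0.05, 9 were below 0, and the median was -0.16. It was -0.05 without WT mouse 245 and -0.03 without a covariate and without mouse 238. The list lay 0.55 (log2) below its mean over the 9 libraries in mouse 238 and at -0.04 to 0.09 in the other Ube3a2X mice. Oxt, the oxytocin precursor, was at 21.7, 58.4, 24.2, and 20.9 CPM in WT and 3.03, 43.4, 25.3, 28.3, and 22.7 CPM in Ube3a2X mice. Avp, the vasopressin precursor, was at 98.1, 143, 157, and 64.3 CPM and 55.7, 140.3, 97.7, 99.9, and 150.4 CPM. Both groups overlapped in each gene, mouse 238 was the lowest in both, and the log2 fold changes were -0.45 ± 0.78 and -0.27 ± 0.34. Pituitary RNA varied in the same tissue. Prl, the prolactin gene of the anterior pituitary, was at 28.9, 142, 9.21, and 2.73 CPM in WT and 0.144, 4.73, 11.99, 5.45, and 53.4 CPM in Ube3a2X mice, and the summed level of 16 pituitary genes was 118 to 949 CPM in WT and 77.3 to 392.2 CPM in Ube3a2X mice. WT mouse 251 was the highest in Prl, in the pituitary list, and in Pomc, which pituitary cells also express, and the part of pituitary RNA in the Pomc values was not tested. Without that mouse the log2 fold change was 0.14 for Pomc and 0.16 for Oxt, and the median of the pituitary list was 0.22 in place of -0.68.

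Receptors of hypothalamic peptides and metabolic hormones had 4 of 38 tested members lower (Calcr, Cckar, Npy5r, and Mc4r) and 1 higher (Oprm1) at an unadjusted p under 0.05, with a median of -0.13, where 0.923% of all genes were lower and 1.76% higher. Without WT mouse 423, 1 was lower and 0 higher, without mouse 238, 2 were lower and 0 higher, and without a covariate 2 were lower and 1 higher. The median was -0.06 without WT mouse 245 and -0.07 without a covariate. Calcr, the calcitonin and amylin receptor, was at 48.1, 48.4, 41.4, and 37.9 CPM in WT and 35.9, 39.7, 37.3, 37.6, and 40.2 CPM in Ube3a2X mice (log2 fold change -0.27 ± 0.10). Cckar, a cholecystokinin receptor, was at 8.21, 9.58, 7.97, and 8.24 CPM and 6.28, 5.95, 6.14, 6.799, and 8.51 CPM (log2 fold change -0.34 ± 0.15). The groups overlapped in both, Calcr through WT mouse 423 and Cckar through Ube3a2X mouse 404. Brs3, an orphan receptor that lowers food intake, was among the 12 lower genes of smallest p at 10.2, 9.11, 7.37, and 7.06 CPM and 6.26, 5.99, 6.82, 6.18, and 7.20002 CPM (log2 fold change -0.47 ± 0.14), overlapping through Ube3a2X mouse 404 and WT mouse 423. Trpc7, a cation channel, was in the same group at 14.7, 14.9, 14.1, and 12.6 CPM and 10.9, 10.8, 11.3, 11.9, and 12.8 CPM, with an overlap through the same 2 mice. Snora65, a small nucleolar RNA, also was, at 3.36, 3.14, 2.8004, and 2.67 CPM and 1.79, 1.89, 1.77, 2.29, and 2.596 CPM without overlap, and it lies within the ribosomal protein gene Rpl12 on the same strand, so its count is uncertain.

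Of the sex steroid receptors, 3 are described. Esr1, the estrogen receptor, was at 29.8, 28.5, 22.8, and 20.7 CPM in WT and 22.9, 20.5, 21.98, 20.2, and 29.6 CPM in Ube3a2X mice (log2 fold change -0.24 ± 0.14). Pgr, the progesterone receptor, had a log2 fold change of -0.07 ± 0.13, and Esr2, at 0.676 to 0.965 CPM in WT and 0.744 to 0.8803 CPM in Ube3a2X mice, did not pass the filter. The groups overlapped in all 3. Of 24 tested steroid receptor, coactivator, and enzyme genes, 1 was lower at an unadjusted p under 0.05, against 0.923% of all genes, and 0 were higher. Without WT mouse 423, 0 of 22 were lower. The 1 gene was Fkbp5, a glucocorticoid-induced chaperone of those receptors, at 45.4, 47.5, 38.6, and 39.7 CPM and 35.9, 32.5, 33.3, 41.01, and 39.9 CPM (log2 fold change -0.26 ± 0.12).

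Genes tied to UBE3A itself were looked at as lists. All 17 tested HECT ligases, Ube3a among them, had a log2 fold change above 0, against 49.3% of all genes, and the median was 0.17. Hectd4 was at 355, 324, 316, and 393 CPM in WT and 448, 399, 432, 375, and 373 CPM in Ube3a2X mice (log2 fold change 0.28 ± 0.11). Herc2, which lies near Ube3a and binds its protein, was at 392.3, 345, 356, and 414 CPM and 544, 393, 433, 394, and 445 CPM (log2 fold change 0.26 ± 0.12). The groups overlapped in both, and mouse 238 was the highest. Without mouse 238, 11 of 14 tested ligases were above 0 and the median was 0.11. After removal of the trends with GC content and gene length, 13 of 17 were above 0 and the median was 0.06. Of the 13 tested genes of the Ube3a region of chromosome 7, Ube3a and Herc2 were higher at an unadjusted p under 0.05, against 1.76% of all genes, and the median was -0.04. Only 1 member was higher at that p without mouse 238, without WT mouse 423, or after removal of the GC and length trends. Gabra5 and Gabrg3, GABA-A receptor genes of that region, had log2 fold changes of -0.11 and -0.12. Of 18 reported UBE3A substrates and partners 1 was lower at an unadjusted p under 0.05 (Aldh1a2), against 0.923% of all genes, and 0 were higher. They had 9 values on each side of 0 and a median of -0.001. Proteasome subunits had 22 of 23 values below 0, a median of -0.10, and 0 at an unadjusted p under 0.05, and without mouse 238 the median was -0.04. Psma5, a subunit of the core ring, was at 62.9, 62.4, 68.9, and 59.5 CPM and 51.9, 59.2, 54.4, 62.5, and 63.6 CPM (log2 fold change -0.15 ± 0.10). Chaperones and genes of the unfolded protein response had 20 of 23 values below 0, a median of -0.10, and 0 at an unadjusted p under 0.05.

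**Figure D4:**
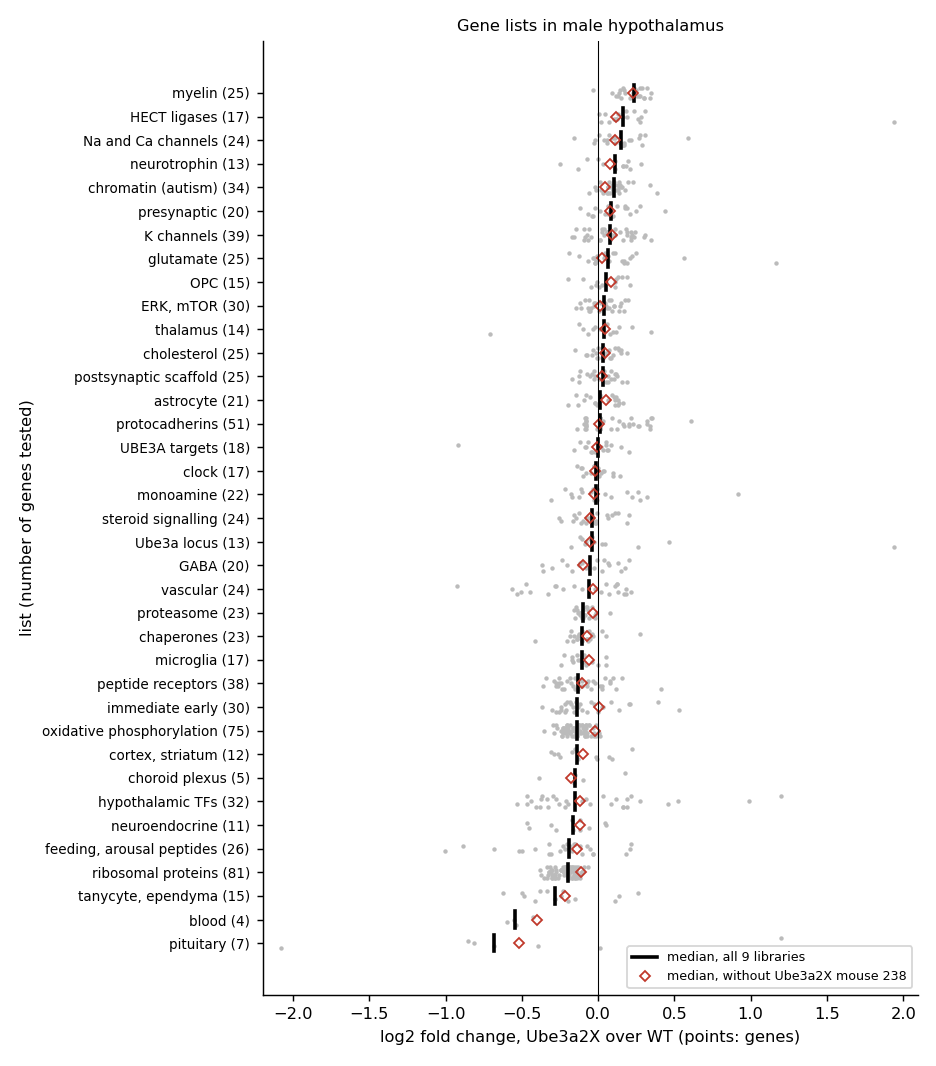
Log2 fold changes of the tested members of each gene list (grey points), with the median over all 9 libraries (black bars) and the median without Ube3a2X mouse 238 (red diamonds), ordered by median. Myelin genes have the highest median (0.24) and pituitary genes the lowest (-0.68), and the median of the respiratory chain moves from -0.14 to -0.02 without mouse 238.

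Myelin genes had the highest median of all lists, and 8 of their 25 tested members were higher at an unadjusted p under 0.05 (among them Gjc3, Myrf, Mag, Mobp, Mbp, Trf, and Mog), 0 were lower, and 24 were above 0, with a median of 0.24. Over all genes, 1.76% were higher at that p. Myrf, the transcription factor of myelination, was at 50.1, 46.9, 50.8, and 66.6 CPM in WT and 63.8, 67.6, 65.9, 64.2, and 50.4 CPM in Ube3a2X mice (log2 fold change 0.34 ± 0.12 with RIN and 0.22 without it). Gjc3, a gap junction protein of oligodendrocytes, was at 54.9, 52.8, 56.6, and 67.96 CPM and 76.3, 66.1, 64.2, 64.4, and 65.9 CPM (log2 fold change 0.30 ± 0.10). Mobp, a basic protein of myelin, was at 383, 394, 524, and 503 CPM and 557, 548, 472, 613, and 506 CPM. The groups overlapped in all 25 genes. The summed level of the list was 5052, 5207, 6602, and 6734 CPM in WT and 6270.2 to 7071 CPM in Ube3a2X mice. WT mice 245 and 251 were below all Ube3a2X mice, as in Ebf3, and WT mice 403 and 423 within the Ube3a2X range. Without a covariate 2 members were higher at an unadjusted p under 0.05 and the median was 0.15, and without mouse 238 as well 0 were.

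The other cell types gave small medians. They were 0.05 for 15 oligodendrocyte precursor genes, 0.01 for 21 astrocyte genes, and -0.11 for 17 microglia genes, and none of these members had an unadjusted p under 0.05. Markers of neighbouring tissue were checked likewise. For thalamus and habenula genes the median was 0.04, for cortex, hippocampus, and striatum genes -0.14, for choroid plexus genes -0.15, and for blood genes -0.55, with 0 members under an unadjusted p of 0.05. With 1 library left out, the median ran from -0.18 to -0.04 for the cortex, hippocampus, and striatum genes and from -0.27 to -0.06 for the choroid plexus genes. It ran from -0.75 to -0.31 for the blood genes and from -0.16 to -0.06 for the microglia genes. The blood list was lowest in mouse 238, at 65.2 CPM in sum, and 98.8 to 262 CPM in the other 8 libraries.

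In the lists of ribosomal, respiratory, channel, and chromatin genes, mouse 238 stood farthest from the mean of the 9 libraries. All 81 tested cytosolic ribosomal protein genes had a log2 fold change below 0, 4 of them at an unadjusted p under 0.05 (Rpl9, Rpl32, Rpl10, and Rpl21) against 0.923% of all genes lower, and the median was -0.20. Without WT mouse 423, 1 had an unadjusted p under 0.05. In 2 of the 81 the Ube3a2X mice were all lower than the WT mice, against 0.615% of all genes. Rpl9 was at 274, 304, 361, and 281 CPM in WT and 218, 238, 231, 279.5, and 285 CPM in Ube3a2X mice (log2 fold change -0.32 ± 0.12). The ribosomal genes of mouse 238 lay 0.71 (log2) below their mean over the 9 libraries, and those of the other Ube3a2X mice at -0.02 to 0.09. Without mouse 238, 63 of 74 were below 0 and the median was -0.11. Nuclear genes of the respiratory chain and ATP synthase had 73 of 75 values below 0, a median of -0.14, and 0 at an unadjusted p under 0.05. Without mouse 238, 44 of 72 were below 0 and the median was -0.02.

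Sodium and calcium channel genes had 21 of 24 values above 0, 2 of them at an unadjusted p under 0.05 (against 1.76% of all genes higher), and a median of 0.15. Cacna1g, a low-threshold calcium channel that drives burst firing, was at 85.5, 101, 81.02, and 112 CPM in WT and 116, 113, 121, 101, and 100.4 CPM in Ube3a2X mice (log2 fold change 0.31 ± 0.12). Scn8a, a sodium channel of axon initial segments, was at 155, 150.03, 178, and 182 CPM and 238, 181, 185, 184, and 186 CPM (log2 fold change 0.26 ± 0.12). WT mouse 423 overlapped with Ube3a2X mice in both. Potassium channels had 2 of 39 members higher and 0 lower at an unadjusted p under 0.05 (Kcna2 was 1 of them), with a median of 0.08, and 0 were higher without mouse 238 or without WT mouse 423. Of 34 autism-linked chromatin and transcription regulators, 31 were above 0, 2 at an unadjusted p under 0.05, with a median of 0.11. Kmt2d, a histone methyltransferase, was at 111, 117, 93.1, and 125.8 CPM and 165, 122.8, 165, 117, and 138 CPM (log2 fold change 0.39 ± 0.14). Without mouse 238, the median of the chromatin list was 0.04 and that of the sodium and calcium channels 0.11. After removal of the trends with GC content and gene length, they were -0.01 and 0.03, and that of the ribosomal genes was -0.17. With 2 surrogate variables added to the model, the medians were -0.02 for the ribosomal, 0.06 for the respiratory, 0.03 for the proteasome, and 0.04 for the chaperone genes. Pclo, a giant protein of the presynaptic active zone, was at 325, 306, 322, and 365 CPM and 605, 335, 399, 402, and 429 CPM, overlapping and highest in mouse 238, and was the 1 of 20 vesicle release genes with an unadjusted p under 0.05 (log2 fold change 0.44 ± 0.16).

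**Figure D5:**
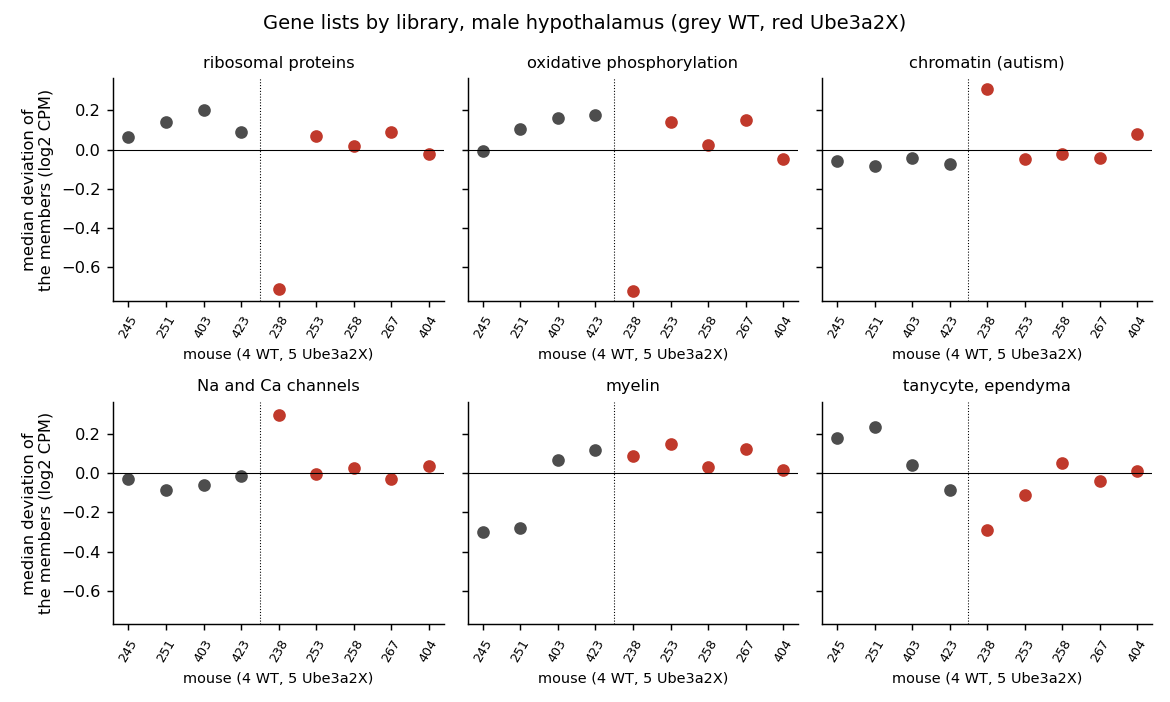
Median deviation of the members of 6 gene lists from their mean over the 9 libraries (log2 CPM, y axis) in each library (x axis, mouse number), grey for WT and red for Ube3a2X. Ube3a2X mouse 238 stands apart in the upper row and in the channel list, and WT mice 245 and 251 stand apart in the myelin list.

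The clustered protocadherins, adhesion proteins that give neurons individual surface codes, had 5 of 51 tested members higher and 0 lower at an unadjusted p under 0.05, against 1.76% of all genes higher, and all 5 belong to the beta cluster. Of the 51, 39 were above 0 and 12 below, and the median was 0.01. The alpha members all lay at -0.09 to -0.08 and the gamma members all at 0.009 to 0.013, so these are hardly separate values. Without WT mouse 423, 21 of 51 were above 0 and the median was -0.01, with 5 higher at an unadjusted p under 0.05. Pcdhb21 was at 6.54, 6.43, 5.58, and 6.51 CPM in WT and 13.6, 8.48, 7.801, 8.13, and 9.41 CPM in Ube3a2X mice, with no overlap (log2 fold change 0.61 ± 0.19). Pcdhb18 was at 10.2, 9.32, 9.57, and 10.4 CPM and 14.2, 11.9, 11.8, 12.2, and 12.01 CPM, also with no overlap (log2 fold change 0.35 ± 0.12). The groups did not overlap in 3 of the 51 genes (Pcdhb21, Pcdhb18, and Pcdhb4), against 0.407% of all genes. Without mouse 238, 5 of 40 tested members were higher and 0 lower at an unadjusted p under 0.05. These genes are near copies of each other, so reads could be split between them.

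Immediate early genes, which neurons switch on when active, had 1 of 30 tested members at an unadjusted p under 0.05 (Nr4a2), against 2.69% of all genes. Their median was -0.14, and it was 0.00 without mouse 238 and 0.17 with 2 surrogate variables. Fos was at 24.5, 12.6, 33.9, and 6.89 CPM in WT and 3.19, 14.4, 19.1, 32.2, and 28.1 CPM in Ube3a2X mice, lowest in mouse 238. Lists with 0 members at an unadjusted p under 0.05 were the 17 clock genes (median -0.01), 25 glutamate receptor genes (0.06), 25 postsynaptic scaffold and adhesion genes (0.03), 30 genes of the ERK and mTOR cascades (0.04), 13 neurotrophin genes (0.11), and 25 cholesterol genes (0.03). Of 22 monoamine genes 1 had an unadjusted p under 0.05 (Hdc), against 2.69% of all genes, with a median of -0.02, and 0 had without mouse 238 or without WT mouse 423.

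The effect of genotype in males was then compared with that in females of the same tissue, in a fit of the 18 hypothalamus libraries of both sexes. For the difference between the sexes, an adjusted p of 0.05 was passed by 0 of 11869 genes (0%) and an unadjusted p of 0.05 by 131 (1.1%). Ube3a had a log2 fold change of 2.39 ± 0.29 in females (adjusted p = 0.00225), the 1 gene called there, and the difference, male minus female, was -0.40 ± 0.40 (adjusted p = 0.998). Of the 24 genes of smallest p in males, 23 were tested in females and 18 had the same sign there, against 63.9% of the 10802 genes tested in both. Genes of ciliated cells had a log2 fold change in females of -0.82 ± 0.25 for Ccdc153, -0.49 ± 0.20 for Tmem212, and -0.72 ± 0.28 for Dynlrb2. In the whole list of tanycyte and ependymal genes, 4 of 15 were above 0 in females and the median was -0.29. Dlx1 had -0.42 ± 0.18 and Dlx6 -0.87 ± 0.31. The 5 genes of the other sign in females were Grin1os (-0.82 ± 0.35), Acat3 (-0.43 ± 0.29), Coro6 (-0.05 ± 0.18), Gm5577 (-0.22 ± 0.17), and Ccn3 (0.01 ± 0.16). Their difference, male minus female, was 1.74 ± 0.53 for Grin1os, 1.08 ± 0.45 for Acat3, 0.91 ± 0.27 for Coro6, 0.76 ± 0.26 for Gm5577, and -0.69 ± 0.23 for Ccn3. Gad1, which is not among the 24, had -0.06 ± 0.10 in females and a difference of -0.25 ± 0.14, and the adjusted p of the difference was 0.998 for all 6. The myelin median was 0.02 in females, and the medians of the ribosomal and respiratory lists were -0.48 and -0.50.

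The same was done for the prefrontal cortex (PFC) of males, in a fit of the 19 male libraries of both tissues. For the difference between the tissues, an adjusted p of 0.05 was passed by 0 of 10981 genes (0%) and an unadjusted p of 0.05 by 597 (5.44%). DESeq2 called 2, and without the PFC library of Ube3a2X mouse 258 edgeR called 22. With the mouse as a replicate block in edgeR, 0 genes were called and 352 had an unadjusted p under 0.05. Ube3a had a log2 fold change of 2.05 ± 0.19 in the PFC (adjusted p = 1.95e-05), and the difference, Hypo minus PFC, was -0.13 ± 0.28 (adjusted p = 0.998). Of the 24 genes, 12 were tested in the PFC and 3 had the same sign, against 49.5% of the 9606 genes tested in both. Dlx1 had a log2 fold change of 0.10 ± 0.13 in the PFC, Gad1 -0.03 ± 0.09, and Pcdhb18 -0.23 ± 0.09. The difference, Hypo minus PFC, was -0.58 ± 0.19 for Dlx1, -0.28 ± 0.14 for Gad1, and 0.61 ± 0.14 for Pcdhb18 (adjusted p = 0.783, 0.917, and 0.783). The myelin median was 0.23 in the PFC, where the other glial and vascular lists had medians of the same order, 0.24 for the 7 tanycyte and ependymal genes tested there, 0.37 for oligodendrocyte precursor, 0.26 for astrocyte, 0.24 for microglia, and 0.22 for endothelial, mural, and meningeal genes. The ribosomal median was 0.16 there. In 7 of the male mice, cortex and hypothalamus were both sampled, so the values of the tissues are not independent.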

How the data were processed

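Hypothalamus RNA of single mice was sequenced by the authors from stranded, paired-end mRNA libraries prepared in 1 batch, then aligned with STAR to the mouse genome (GRCm38, mm10), and counted per gene with featureCounts. The strand setting of the counting is not given in the sources used here. The deposited file holds raw counts of reads for 54165 Ensembl gene IDs, of which 53905 were found in the annotation used for names and positions. The authors also deposited a table of quality measures made with Picard tools, which holds scores (the RIN and AT dropout), base and strand shares as a fraction, ratios of coverage, and counts of aligned reads.

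Groups came from the sample labels. A gene was kept if at most 1 of the 9 libraries had under 100 reads, and the 15% of genes that varied least in log2 CPM (with a prior count of 2) were then dropped. The 12028 genes left were fitted in edgeR 4.0.16 (R 4.3.3) with TMM scaling, genotype, and RIN, using the robust quasi-likelihood test and Benjamini-Hochberg adjustment at 0.05. CPM uses the TMM-scaled library size. DESeq2 1.42.0, limma-voom (limma 3.58.1), surrogate variables (sva 3.50.0), other filters, and single libraries left out were alternatives, and the fitting code was tested on simulated data. The replicates are single animals. Over the pairs of libraries of a group, the mean squared difference was 20.3 to 201 times that of sampling noise. It was 80.5 to 201 times in the pairs with mouse 238 and at most 77.1 times in the others. The quality measures were compared by an exact permutation test over 126 arrangements.

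For hypothalamus against PFC, 7 male mice gave both tissues, so the mouse number pairs them. The correlation of their deviations from the group means was -0.547 to 0.414 over these mice. The 9 hypothalamus libraries themselves share no mouse number between genotypes.

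Genes were named by a rule, which took Ube3a, the 12 genes of smallest p per direction, up to 2 members per list, the sex steroid receptors, 7 defining peptides, and the label checks. The comparison, the lists, and the rule were chosen with earlier results of these data known. A list is described by its counts and median and has no test of its own. Some genes that may share reads with near copies or an opposite gene are named as uncertain. Other named genes also overlap a gene on the opposite strand, such as Cdh23 with Vsir, and the part of its reads in their counts was not tested. A few genes of the rule and of the lists are not reported here by name.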

Additional observations from a re-analysis of the deposited data

Results flagged for a closer look

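Of 186 groups of 4 or 5 libraries examined, for the genes named and the quality measures, 20 had 1 library far from the rest, where chance alone gives about 1 in 20. Each value below is the gap of that library to its nearest neighbour divided by the range of the group. Ube3a2X mouse 238 was far from its group in 7. It was high in Scn8a (0.889), Gjc3 (0.826), and Pcdhb18 (0.816) and low in Oxt (0.755), Rarres2 (0.7102), Dynlrb2 (0.845), and the share of UTR bases (0.742). WT mouse 251 was high in Ccn3 (0.891) and Oxt (0.859). WT mouse 403 was low in Pcdhb21 (0.891), high in the share of coding bases (0.865), and high in the variation of coverage (0.845). WT mouse 423 was low in RIN (0.909) and high in AT dropout (0.868). WT mouse 245 was low in Trh (0.877). Ube3a2X mouse 404 was low in Lmx1b (0.752) and Myrf (0.801), mouse 258 low in Kcnmb1 (0.719), mouse 267 low in Slc6a13 (0.713), and mouse 253 high in Dlx2 (0.758). The groups of Rarres2, Dynlrb2, Pcdhb18, Pcdhb21, Ccn3, and Kcnmb1 did not overlap with or without these libraries, since each lay on the side away from the other genotype.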

How the results depend on the processing

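The number of genes called was 0 in the edgeR model with RIN, 3 by DESeq2, and 1 by limma-voom, without a covariate, and without a covariate and Ube3a2X mouse 238 (an alternative chosen after seeing the data). It was 0 to 3 with 1 library left out. The number at an unadjusted p under 0.05 was 323, and 868 with the filter of edgeR, 1817 without a filter, 712 with the strand share in place of RIN (chosen after seeing the data), 208 without a covariate and mouse 238, and 115 to 602 with 1 library left out. The log2 fold change of Ube3a was 1.94 by DESeq2, 1.89 by limma-voom, 1.98 without a covariate, 1.80 without a covariate and mouse 238 (adjusted p = 0.00891), and 1.78 to 2.04 with 1 library left out. The mean difference in the unexpected-strand share was 0.711 to 1.17 percentage points with 1 library left out (exact p 0.0286 to 0.0893), and that in RIN 0.0867 to 0.82.

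Signs turned in a few named genes near 0 or with wide errors, and the cause was not tested. With the strand share, the log2 fold change of Pgr was 0.034 and that of Gabra5 0.015. With 2 surrogate variables, Hcrt was at 0.28, Oxt at 0.061, and Avp at 0.17, and Avp was at 0.064 with the first quality component and 0.074 without a covariate and mouse 238. With 1 library left out, Pomc ran from -1.04 to 0.14 and Oxt from -0.81 to 0.16. Between 10 and 19 lists had a median above 0, against 15.

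The difference between the sexes had 0 genes called in each alternative, and 131 at an unadjusted p under 0.05 against 872 with 2 surrogate variables and 66 to 468 with 1 library left out. The difference between the tissues had 2 genes called by DESeq2 and 0 to 22 with 1 library left out. With the mouse as a replicate block it had 0 called, with 352 genes in edgeR and 457 in limma-voom at an unadjusted p under 0.05 against 597. The filter at 100 reads leaves rarer transcripts such as Esr2 untested.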
